A study of Homo sapiens with 12 samples.

Results

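Molecular chaperones are the proteins that help other proteins fold, and 83 protein-coding chaperone genes were followed here in A375 cells, an established human melanoma line that carries mutant BRAF. The genes were chosen by symbol alone: those starting with HSPA, HSPB, HSPD, HSPE, HSPH, HSP90 or DNAJ, and the 8 subunits of the CCT chaperonin (CCT2 to CCT8 and TCP1). HSPBAP1, HSPBP1 and antisense genes were left out, so were 96 pseudogenes and non-coding genes with matching symbols, and 1 locus that has since been renamed. The 83 genes are a small part of the 58347 genes in the count files, of which 19817 are protein-coding. They comprise 15 HSP70-family genes, 3 HSP90-family genes, 11 chaperonin genes, 9 small heat shock protein genes, and 45 genes for J-domain proteins of class A (4), class B (12) and class C (29). Polyadenylated RNA was sequenced from 12 samples in 4 groups of 3, namely DMSO vehicle, tretinoin, vemurafenib, and vemurafenib with tretinoin (the combination). All samples were the same line, exposed for 8 h, and the labels give 5 µM as the dose throughout, also for vehicle. Vemurafenib inhibits mutant BRAF, a kinase that drives ERK signalling, and tretinoin (all-trans retinoic acid) activates the retinoic acid receptors. The comparisons ask how each drug alone and both together alter expression in the BRAF-mutant line. Drug was applied in triplicate, but nothing states that the replicates were independent cultures, so the p-values measure only the spread between these samples, which may be technical, in a single cell line.

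HSP70 proteins bind exposed hydrophobic stretches of unfolded proteins in cycles of ATP hydrolysis, which J-domain proteins start and nucleotide exchange factors end. HSP90 acts later on near-native clients, many of them kinases, with a set of co-chaperones, while the CCT ring encloses actin, tubulin and other substrates, and small heat shock proteins hold denatured proteins without ATP. Heat shock factor 1 (HSF1) drives many of the cytosolic genes through heat shock elements in their promoters, and the endoplasmic reticulum (ER) has its own set, controlled by the unfolded protein response.

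The samples held between 13510235 and 21534377 counted fragments. After the filter on low counts, 16740 genes were tested and 71 of the 83 chaperone genes were among them. The 12 that were not tested had at most 13 counts in any sample: HSPA12B, HSPB2, HSPB2-C11orf52, HSPB7, HSPB9, HSPE1-MOB4, DNAJB7, DNAJB8, DNAJB13, DNAJC5B, DNAJC5G and DNAJC25-GNG10. Of the control genes for the drugs, 10 of 10 ERK output genes fell with vemurafenib and with the combination, and 4 of 8 retinoid response genes rose with tretinoin. Over all tested genes, 26.3% fell with vemurafenib, 26.5% fell with the combination and 3.48% rose with tretinoin. Tretinoin replicate 1 stood apart, with a chi-square per degree of freedom of 21.4 and 24.4 against the other tretinoin samples, which differed from each other by 2.69. The melanocyte regulator MITF was present at 13.4 to 33.1 CPM (counts scaled to the size of the library), but SOX10 was listed at 0 in all 12 samples, and TYR, MLANA and DCT reached at most 0.883 CPM. Summed markers of 3 other lineages differed between the groups. The 4 fibroblast markers, of which 3 passed the filter, summed to 14.2 to 16.5 CPM with DMSO and 44.6 to 46.4 CPM with vemurafenib, with COL3A1 at 0.529 CPM or less in every sample. The 4 keratinocyte markers, of which 2 passed and KRT1 was listed at 0, summed to 12.4 to 16.6 and 29.1 to 32.2 CPM, and the 7 melanocyte markers, of which 3 passed, to 25.9 to 30.8 and 42.1 to 44.0 CPM. The 3 endothelial markers, all past the filter, summed to 5.29 to 6.55 CPM with DMSO, 12.7 to 17.2 CPM with tretinoin and 2.40 to 3.17 CPM with vemurafenib. In each of these 3 other lineages 1 gene had by far the widest range over the 12 samples. PDGFRB ran from 9.80 to 35.8 CPM, KRT14 from 4.69 to 31.9 CPM and CDH5 from 0.0601 to 15.3 CPM. PECAM1 and VWF reached at most 2.09 and 2.26 CPM, so the sums do not show markers moving as sets. The part of these markers in the chaperone results was not tested. In bulk RNA of this single line, the number of cells that express a marker and its RNA per cell cannot be told apart.

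Most of the highly counted folding genes were lower with vemurafenib. The 8 CCT subunits, the mitochondrial chaperonins HSPD1 and HSPE1, the constitutive HSP70 gene HSPA8, the inducible pair HSPA1A and HSPA1B, and both cytosolic HSP90 genes all fell, while 4 small heat shock protein genes and the J-domain genes DNAJB2, DNAJB4 and DNAJB5 rose. Of the 71 tested chaperone genes, 36 (50.7%) fell and 16 (22.5%) rose relative to DMSO (edgeR's quasi-likelihood test, Benjamini-Hochberg adjusted p under 0.05), against 26.3% and 26.4% of all tested genes. The median log2 fold change was -0.28 over the chaperone genes and 0.02 over all tested genes, and the samples of both groups did not overlap for 54 of the 71 (76.1%), against 61.9% of all genes. With the combination, 31 (43.7%) fell and 14 (19.7%) rose relative to the same DMSO samples, against 26.5% and 27.1% of all genes, with medians of -0.235 and 0.025. The 2 comparisons share their controls. Both sets of risers include HSPB6 and DNAJC28, which passed the low-count filter only through samples that received vemurafenib. Side by side, 30 genes fell and 13 rose in both, 9 changed with vemurafenib alone, and DNAJA4 (down) and HSPA2 (up) with the combination alone. The share of all tested genes called in both was not counted, so this overlap is not a result about the chaperone genes. The difference between the treatments is tested further on. With tretinoin alone, 6 genes fell (8.45%), against 2.2% of all genes. The 6 include HSPA1A and HSPA1B, which share long stretches of sequence.

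**Figure D1:**
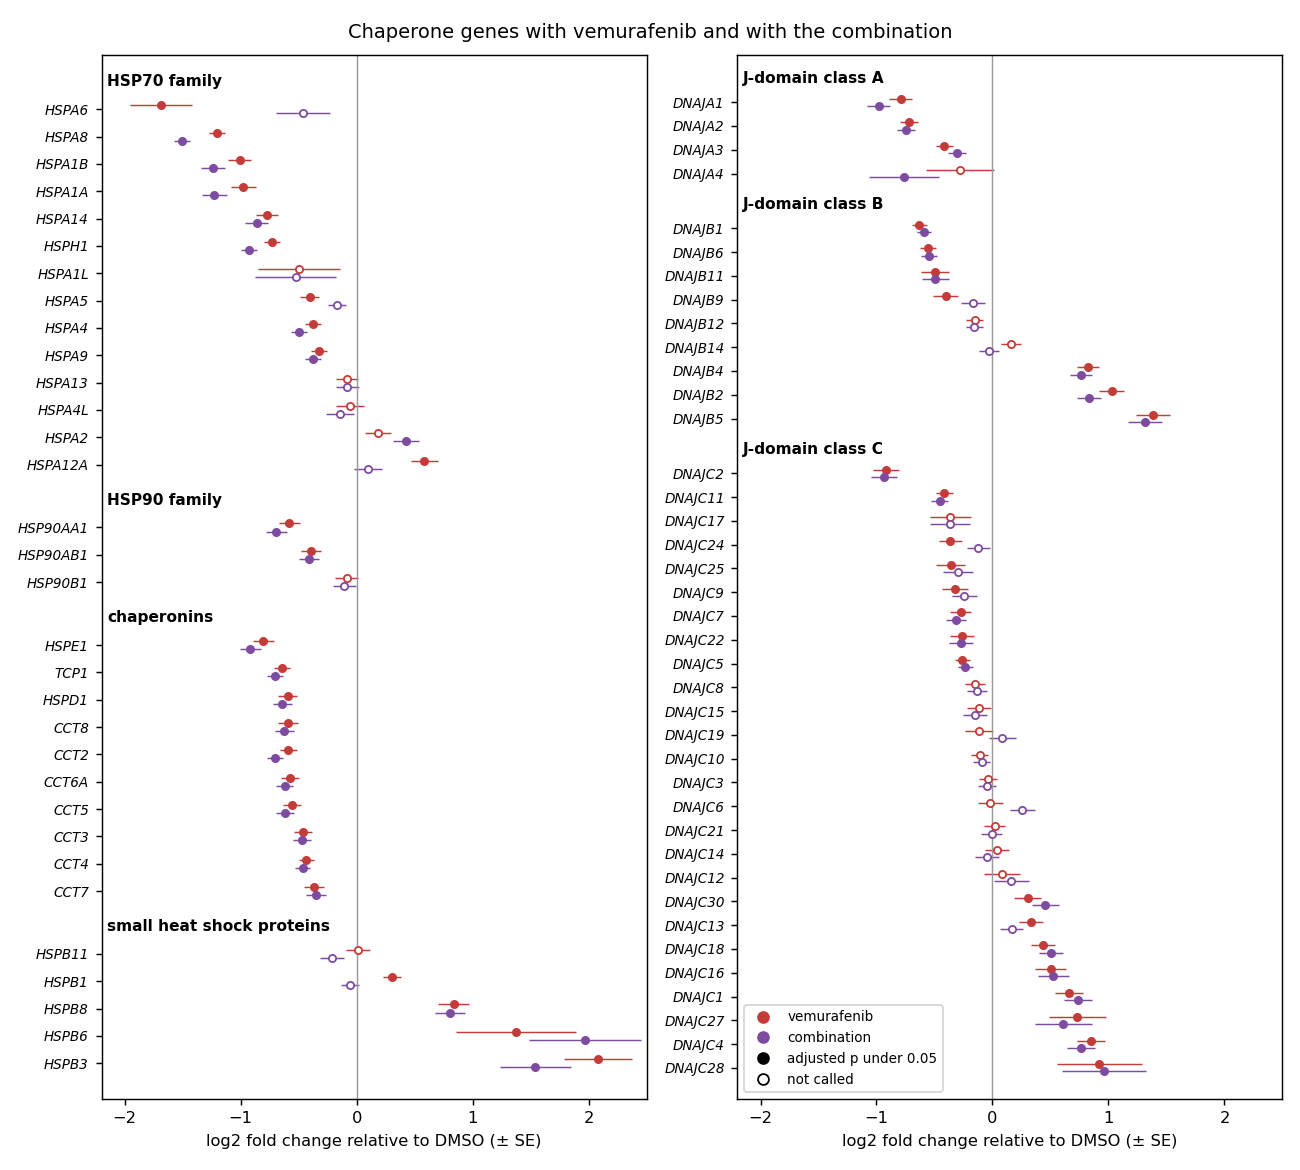
Log2 fold change relative to DMSO, with its standard error, of the 71 tested chaperone genes in vemurafenib (red) and in the combination (purple), ordered within each family by the vemurafenib value. Filled points passed an adjusted p of 0.05. The 10 chaperonin genes all lie left of 0, 4 of 5 small heat shock protein genes are called right of it with vemurafenib and HSPB11 sits at 0.01, and the class C J-domain genes spread to both sides.

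The direction went with how many fragments a gene yields. Of the 35 chaperone genes among the 4185 tested genes with the highest mean CPM (53.8 or more), 27 (77.1%) fell and 3 (8.57%) rose with vemurafenib, against 47.4% and 13.5% of those 4185 genes. Among the other 36 chaperone genes, 9 (25%) fell and 13 (36.1%) rose, against 19.2% and 30.6% of the other tested genes. The 13 include HSPB6 and DNAJC28, so their share rests partly on the filter. The median CPM was 373 for the genes that fell and 12.9 for those that rose. Scaling by total counts alone moved the median of all genes by 0.195 with vemurafenib, 0.16 with the combination, 0.09 for the combination against tretinoin and -0.10 for the interaction of the drugs, where the default TMM scaling centres it near 0. Under that scaling, the called chaperone genes split into 27 down and 19 up with vemurafenib (58.7% down, in place of 69.2%), which is 38.0% and 26.8% of the 71, against 15.7% and 39.3% of all genes. With the combination they split into 26 down and 16 up (61.9% down, in place of 68.9%), or 36.6% and 22.5% of the 71, against 17.4% and 37.3% of all genes. All log2 values below are on the TMM scale.

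**Figure D2:**
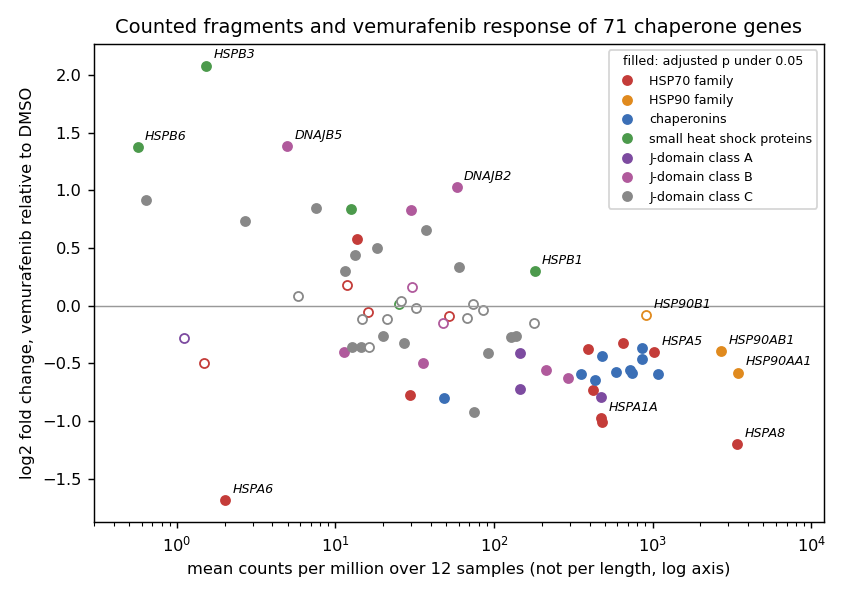
Mean CPM over the 12 samples (log axis, not divided by length) against the log2 fold change with vemurafenib, for the 71 tested chaperone genes coloured by family. Filled points passed an adjusted p of 0.05. The genes that fell have a median of 373 CPM and those that rose of 12.9 CPM, with HSPA6 as a gene of few counts that fell and HSPB1 as one of 181 CPM that rose.

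In DMSO the 83 genes took 2.70% ± 0.02 (SD, n = 3) of all counted fragments. The share was 2.45% ± 0.15 with tretinoin, where replicate 1 read 2.28% and the others 2.545% and 2.53%, 2.07% ± 0.03 with vemurafenib and 1.92% ± 0.05 with the combination. HSPA8, HSP90AA1 and HSP90AB1 held 0.466%, 0.417% and 0.301% of all fragments with DMSO, and 0.232%, 0.319% and 0.262% with vemurafenib. The vemurafenib and combination samples all lay below the DMSO and tretinoin samples in the summed share. Class C J-domain genes kept a share of 0.117% with DMSO, 0.121% with vemurafenib and 0.118% with the combination, and the lower total lay in the HSP70, HSP90, chaperonin and class A and B J-domain genes. Small heat shock protein genes went from 0.0203% to 0.0289% with vemurafenib and stood at 0.0225% with the combination.

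**Figure D3:**
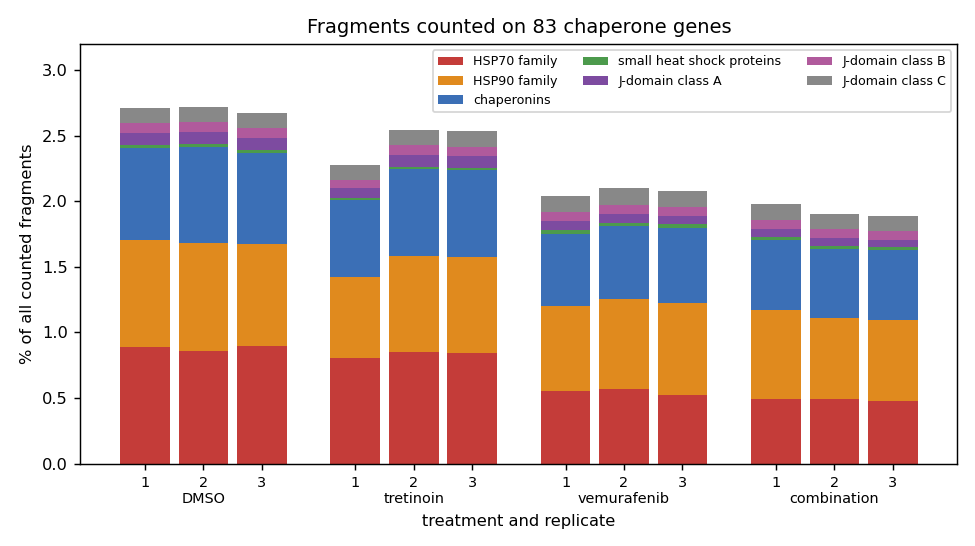
Percent of all counted fragments that fell on the 83 chaperone genes in each of the 12 samples, stacked by family. The bars reach 2.68% to 2.72% with DMSO, 2.28% to 2.55% with tretinoin, 2.04% to 2.10% with vemurafenib and 1.89% to 1.98% with the combination, and most of the difference lies in the HSP70, HSP90 and chaperonin segments.

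Per length, HSP90AB1 and HSPA8 led with DMSO, at 1091 and 1036 CPM per kilobase of annotated exon, followed by HSP90AA1 at 857, HSPD1 at 328 and HSPA1A at 295. With vemurafenib the order on this scale was HSP90AB1 (829), HSP90AA1 (573), HSPA8 (450.0), CCT7 (218) and HSPD1 (217). HSPA8 passed from near the top to below both cytosolic HSP90 genes. Its locus is chr11:123057489-123063230 on the minus strand (GRCh38).

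HSPA8 encodes HSC70, the constitutive cytosolic HSP70 that also uncoats clathrin vesicles and serves chaperone-mediated autophagy. The gene read 4914, 4967 and 5187 CPM with DMSO, 4634, 4767 and 4732 with tretinoin, 2273, 2228 and 2045 with vemurafenib, and 1760, 1795 and 1747 with the combination. The vemurafenib and combination samples lay below every DMSO and tretinoin sample without overlap, and the combination below vemurafenib. Its log2 level fell by 1.20 ± 0.07 (SE) with vemurafenib (edgeR adjusted p = 2.54e-10), which is 2.30-fold lower, and by 1.51 ± 0.07 with the combination (1.20e-11), while tretinoin gave -0.09 ± 0.07 (adjusted p = 0.455). HSPA1A and HSPA1B encode the stress-inducible HSP70 and share 2152 bases at 98% identity or more, so their fragments cannot be assigned with certainty to 1 of them, and 36.5% of the HSPA1B exon positions overlap another gene. HSPA1A read 781, 705 and 714 CPM with DMSO, 376, 545 and 522 with tretinoin, 373, 382 and 362 with vemurafenib, and 344, 301 and 296 with the combination. Every treated sample was below every DMSO sample, and tretinoin replicate 1 was close to the vemurafenib samples while its 2 group mates were higher. HSPA1A fell by 0.98 ± 0.11 with vemurafenib (edgeR adjusted p = 7.14e-07), 0.61 ± 0.11 with tretinoin (0.00214) and 1.23 ± 0.11 with the combination (4.43e-08). HSPA1B gave -1.01, -0.58 and -1.24, all called.

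HSPH1, the HSP110 protein that exchanges nucleotide on HSP70, read 537, 569 and 569 CPM with DMSO, 440.5, 521 and 487 with tretinoin, 338, 344 and 329 with vemurafenib, and 297, 291 and 291 with the combination. Its groups separated in the order DMSO, tretinoin, vemurafenib and combination, and it fell by 0.73 ± 0.07 with vemurafenib (edgeR adjusted p = 1.12e-07) and 0.93 ± 0.07 with the combination (4.94e-09), with -0.21 ± 0.07 for tretinoin (0.0828). HSPA4, another HSP110-type gene, fell by 0.38 ± 0.07 and 0.50 ± 0.07, and HSPA14, which works with a J-domain protein at the ribosome, by 0.77 ± 0.10 and 0.86 ± 0.10. HSPA9, the mitochondrial HSP70 mortalin, fell by 0.33 ± 0.07 and 0.37 ± 0.07, and with total-count scaling its vemurafenib value was -0.13 and no longer called (edgeR adjusted p = 0.0627). In all, 9 of the 14 tested HSP70-family genes fell and HSPA12A rose with vemurafenib, and 7 fell and HSPA2 rose with the combination. The shares of all tested genes were 26.3% down and 26.4% up with vemurafenib, and 26.5% and 27.1% with the combination. For the 4185 tested genes with the highest mean CPM, the vemurafenib shares were 47.4% down and 13.5% up.

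**Figure D4:**
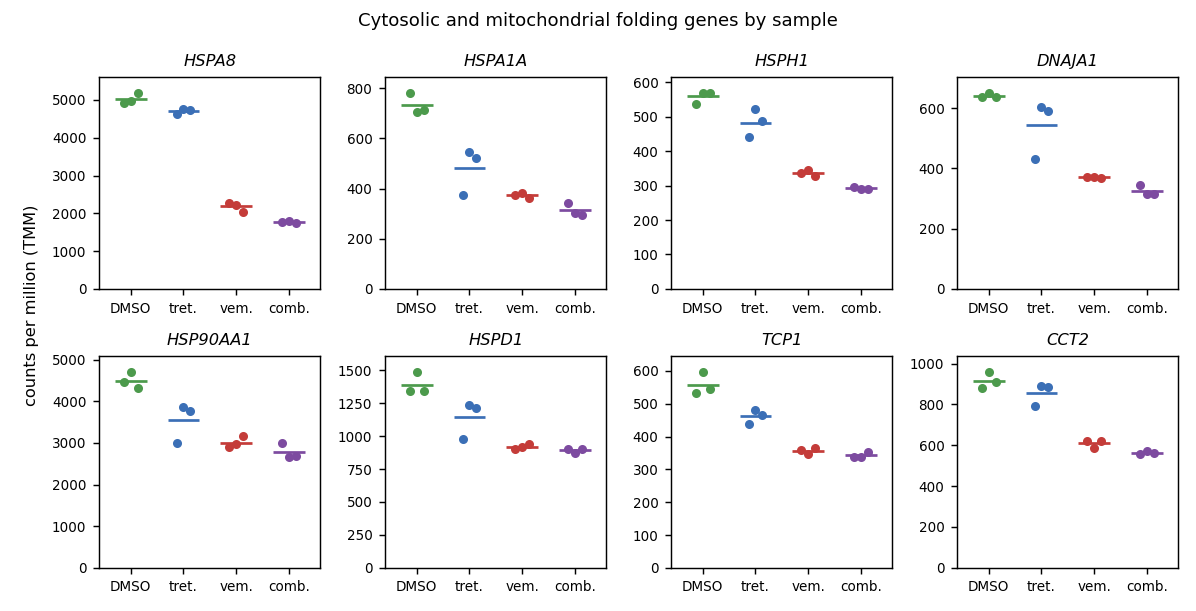
CPM of 8 chaperone genes in each of the 12 samples (points) with the group mean (line), on axes that start at 0. In all 8 panels the vemurafenib and combination points lie below the DMSO points, and tretinoin replicate 1 is the lowest tretinoin point in each.

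HSPA6, a stress-inducible HSP70 that few cells express at rest, was a gene of few counts (15 to 62 per sample). It read 2.13, 2.97 and 3.27 CPM with DMSO, 1.69, 2.73 and 2.74 with tretinoin, 0.935, 0.770 and 0.901 with vemurafenib, and 1.71, 1.998 and 2.35 with the combination. The vemurafenib samples were all below 1 CPM and below every sample of the other 3 groups, and the combination overlapped both DMSO and tretinoin. It fell by 1.69 ± 0.27 with vemurafenib (edgeR adjusted p = 4.64e-05), while the combination gave -0.47 ± 0.23 (0.0993). HSPA6 shares 1933 bases at 98% identity or more with the pseudogene HSPA7, so its assignment is uncertain. HSPA12A, a distant HSP70 relative, read 13.9, 9.997 and 12.3 CPM with DMSO, 13.5, 10.5 and 11.2 with tretinoin, 17.9, 18.4 and 18.0 with vemurafenib, and 12, 12.9 and 13.9 with the combination. Only the vemurafenib samples stood above the rest: it rose by 0.58 ± 0.12 with vemurafenib (edgeR adjusted p = 0.000507), against 0.10 ± 0.12 with the combination (0.509).

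The sequences before HSPA8 and HSPA6 are shown because both carry the longest heat shock element searched for, and yet HSPA8 was lower still with the combination than with vemurafenib whereas HSPA6 was higher. Promoters were taken from RefSeq (GRCh38.p14), as 250 bases before and 50 after the start, and found for 74 of the 83 genes. A heat shock element of 2 units was searched as GAANNTTC or TTCNNGAA, each of which reads the same on both strands, and the longer one as 3 alternating GAA and TTC units with 2 bases between them, on both strands, so that every longer match contains the shorter. The 250 bases before the start follow, from chr11:123062137-123062386 (minus strand) for HSPA8 and chr1:161524290-161524539 (plus strand) for HSPA6, with the 3-unit matches in capitals.
HSPA8: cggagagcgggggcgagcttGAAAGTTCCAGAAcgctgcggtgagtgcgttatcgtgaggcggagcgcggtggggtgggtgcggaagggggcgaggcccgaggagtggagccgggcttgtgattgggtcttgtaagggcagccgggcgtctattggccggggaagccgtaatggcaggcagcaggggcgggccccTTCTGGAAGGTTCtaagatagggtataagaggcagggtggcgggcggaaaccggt
HSPA6: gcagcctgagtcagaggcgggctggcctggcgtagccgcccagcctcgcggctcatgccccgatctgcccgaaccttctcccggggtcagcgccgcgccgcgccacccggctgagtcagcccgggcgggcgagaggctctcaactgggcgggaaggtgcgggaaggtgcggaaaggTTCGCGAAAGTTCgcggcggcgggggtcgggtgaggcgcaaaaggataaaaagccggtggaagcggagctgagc

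The HSPA8 matches begin 230 and 55 bases before the start and the HSPA6 match 74 bases before it. The 3-unit form occurred in 4 of the 74 promoters (5.4%: HSPA8, HSPA6, DNAJA1 and DNAJB6), against 0.5% of 27305 promoters in the table. The 2-unit form occurred in 16 (21.6%), against 13.7% of all promoters. Split by the vemurafenib call, it was in 9 of 32 promoters of genes that fell (28.1%), in 4 of 15 of those that rose (26.7%) and in 2 of 19 of those not called (10.5%). The 4 that rose were HSPB1, HSPB3, HSPB6 and HSPB8, so the letters stood before genes that moved in opposite directions. A match describes these letters only.

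The HSP90 genes divided by compartment. HSP90AA1, the inducible cytosolic HSP90, read 4459, 4710 and 4318 CPM with DMSO, 2996, 3855 and 3773 with tretinoin, 2900, 2963 and 3159 with vemurafenib, and 3001, 2666 and 2682 with the combination. All treated samples lay below the DMSO samples, and those with vemurafenib and the combination overlapped. It fell by 0.58 ± 0.09 with vemurafenib (edgeR adjusted p = 4.98e-05) and 0.69 ± 0.09 with the combination (7.05e-06). HSP90AB1, the constitutive cytosolic form, fell by 0.40 ± 0.09 (0.000778) and 0.41 ± 0.09 (0.000539), with tretinoin at -0.29 ± 0.08 (0.0553). HSP90B1, the ER form GRP94, read 940.5, 1015 and 942 CPM with DMSO, 733, 929.5 and 976 with tretinoin, 825, 956 and 951 with vemurafenib, and 987, 857 and 844 with the combination. Its groups overlapped throughout, at -0.09 ± 0.10 with vemurafenib (edgeR adjusted p = 0.491), -0.14 ± 0.10 with tretinoin and -0.11 ± 0.10 with the combination. HSP90AA1 shares 368 bases with the pseudogene HSP90AA2P.

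The chaperonin genes moved together. The CCT ring is built of 8 different subunits in fixed numbers, and all 8 genes fell with vemurafenib, by 0.365 (CCT7) to 0.64 (TCP1) on the log2 scale, and with the combination, by 0.35 (CCT7) to 0.70 (CCT2 and TCP1). Of all tested genes, 26.3% fell with vemurafenib and 26.5% with the combination. The share that fell with vemurafenib was 47.4% among the 4185 tested genes with the highest mean CPM. The subunits were not tested as a set. TCP1, which encodes the alpha subunit, read 533, 598 and 544 CPM with DMSO, 437, 482 and 466 with tretinoin, 361, 346 and 366 with vemurafenib, and 338, 337 and 353 with the combination. The DMSO, tretinoin and vemurafenib groups were separate, and the combination overlapped vemurafenib. It fell by 0.64 ± 0.07 (edgeR adjusted p = 4.13e-07) and 0.70 ± 0.07 (1.33e-07). CCT2 read 878, 960.1 and 910.0 CPM with DMSO, 791, 891 and 883 with tretinoin, 622, 586 and 620.1 with vemurafenib, and 558, 571 and 561 with the combination, and its vemurafenib and combination samples lay below the other groups without overlap. The medians over the 8 subunits were -0.57 with vemurafenib, -0.22 with tretinoin and -0.62 with the combination. Between the combination and vemurafenib the 8 differed by -0.11 to 0.01, with edgeR adjusted p of 0.519 to 0.988. Adjusted p for vemurafenib ran from 4.13e-07 (TCP1) to 0.00195 (CCT7), and CCT7 was the subunit that lost its call under total-count scaling (-0.17, adjusted p = 0.0534). Of the CCT5 exon positions 30.1% overlap another gene, and fragments there were not counted.

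HSPD1 and HSPE1, the HSP60 and HSP10 of the mitochondrial matrix, overlap on opposite strands of chromosome 2. HSPD1 read 1340, 1490 and 1346 CPM with DMSO, 979, 1235 and 1214 with tretinoin, 900.5, 921 and 941 with vemurafenib, and 905, 871 and 903 with the combination. All vemurafenib and combination samples were below all the others, and the fall was 0.60 ± 0.08 with vemurafenib (edgeR adjusted p = 1.27e-05) and 0.64 ± 0.08 with the combination (5.39e-06). HSPE1 read 66.8, 68.0 and 60.3 CPM with DMSO, 58.3, 55.6 and 56.8 with tretinoin, 32.8, 35.8 and 43.2 with vemurafenib, and 36.8, 33.3 and 33.3 with the combination, and fell by 0.80 ± 0.09 (8.08e-07) and 0.92 ± 0.09 (1.59e-07). Of its exon positions 23.9% are shared with HSPD1 or the read-through gene HSPE1-MOB4, where fragments were not counted for it.

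Class A J-domain proteins are partners that hand substrates to HSP70, and 3 of their 4 genes fell with vemurafenib and 4 with the combination. The shares of all tested genes that fell were 26.3% and 26.5%. For the 4185 tested genes with the highest mean CPM, the share that fell with vemurafenib was 47.4%. DNAJA1 read 636, 650.5 and 636 CPM with DMSO, 431, 605 and 592 with tretinoin, 372, 371 and 368 with vemurafenib, and 345, 315 and 314 with the combination. The vemurafenib and combination samples lay below every other sample and did not overlap each other, and tretinoin replicate 1 was lower than its group mates. DNAJA1 fell by 0.79 ± 0.10 with vemurafenib (edgeR adjusted p = 2.60e-06) and 0.98 ± 0.10 with the combination (1.96e-07). DNAJA2 fell by 0.72 ± 0.08 and 0.75 ± 0.08, and the mitochondrial DNAJA3 by 0.41 ± 0.07 and 0.30 ± 0.07. DNAJA4 was near 1 CPM and was called with the combination alone (-0.76 ± 0.30, edgeR adjusted p = 0.0407; vemurafenib -0.28 ± 0.29).

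Class B went both ways. DNAJB1, the HSP40 that pairs with HSPA8 and HSPA1A, read 362, 374 and 368 CPM with DMSO, 304, 339 and 329 with tretinoin, 246, 233 and 234 with vemurafenib, and 242, 242 and 249 with the combination, and DNAJB6, which blocks polyglutamine aggregation, was also lower. DNAJB1 fell by 0.63 ± 0.06 with vemurafenib (edgeR adjusted p = 2.34e-07) and 0.59 ± 0.06 with the combination (5.03e-07), and DNAJB6 by 0.56 ± 0.07 and 0.55 ± 0.07. The DNAJB1 samples with vemurafenib and with the combination overlapped each other and lay below the other groups. DNAJB2, a J-domain protein best known from neurons that steers clients to the proteasome, read 40.1, 43.8 and 40.7 CPM with DMSO, 27.3, 36.4 and 35.4 with tretinoin, 79.2, 84.6 and 90.5 with vemurafenib, and 86.2, 68.8 and 67.0 with the combination. Every vemurafenib and combination sample was above every DMSO sample, and the level was 2.04-fold higher with vemurafenib, a log2 rise of 1.03 ± 0.11 (edgeR adjusted p = 3.40e-07), and rose by 0.83 ± 0.11 with the combination (4.05e-06). DNAJB5 read 3.35, 2.77 and 2.59 CPM with DMSO, 2.13, 2.62 and 1.92 with tretinoin, 7.58, 7.55 and 7.57 with vemurafenib, and 6.88, 7.39 and 7.33 with the combination. Its groups with and without vemurafenib were far apart, with rises of 1.39 ± 0.15 (4.64e-07), or 2.62-fold, and 1.32 ± 0.15 (8.20e-07). DNAJB4, which maps to chr1:77979175-78017964 (plus strand), read 20.9, 27.4 and 22.5 CPM with DMSO, 14.2, 15.5 and 15.3 with tretinoin, 40.7, 43.1 and 41.5 with vemurafenib, and 41.3, 41.9 and 36.9 with the combination. The tretinoin samples were below all others and the samples with vemurafenib above all others. DNAJB4 rose by 0.83 ± 0.09 with vemurafenib (edgeR adjusted p = 8.90e-07) and 0.77 ± 0.09 with the combination (2.10e-06), and fell by 0.65 ± 0.10 with tretinoin (0.000698).

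Class C, the most varied class, was balanced, as all tested genes were. With vemurafenib 8 of its 26 tested genes fell and 8 rose, against 26.3% and 26.4% of all tested genes. With the combination 5 fell and 7 rose, against 26.5% and 27.1% of all tested genes. The count of fallers depends on scaling, at 2 down and 9 up for each treatment with total counts alone, where the vemurafenib shares over all genes were 15.7% down and 39.3% up. DNAJC2, which acts with HSPA14 on nascent chains at the ribosome, read 104, 109 and 103 CPM with DMSO, 63.9, 97.5 and 91.5 with tretinoin, 54.2, 56.3 and 56.8 with vemurafenib, and 60.6, 52.8 and 52.1 with the combination. It fell by 0.92 ± 0.11 (edgeR adjusted p = 2.29e-06) and 0.94 ± 0.11 (1.72e-06), the largest falls of the class in both comparisons, with no overlap between DMSO and the groups that received vemurafenib. DNAJC4 rose by 0.85 ± 0.12 and 0.76 ± 0.12, and DNAJC1, an ER membrane J-domain protein, by 0.66 ± 0.12 and 0.74 ± 0.12. DNAJC30 rose by 0.30 ± 0.12 and 0.46 ± 0.12, and the vemurafenib call was lost without DMSO replicate 2 or 3 or vemurafenib replicate 1 or 3 (0.25 to 0.32, adjusted p of 0.0716 to 0.127). DNAJC28, at 3 to 20 counts per sample, rose by 0.92 ± 0.37 with vemurafenib (0.0434) and 0.96 ± 0.36 with the combination (0.0322). It reached the filter's minimum count in 1 of 6 samples without vemurafenib and 6 of 6 with it, so it was tested only through the groups where it was high, and it stands among the risers of class C and of the mitochondrial genes. Its vemurafenib call held only without tretinoin replicate 1 or 2, with values of 0.78 to 1.02 and adjusted p up to 0.134 over the 12 samples left out in turn, and its combination call was lost without any DMSO sample or combination replicate 1 or 2 (0.87 to 1.01).

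Small heat shock protein genes were mostly higher with vemurafenib, where 26.4% of all tested genes rose (27.1% with the combination). Of the 5 tested, 4 rose with vemurafenib (HSPB1, HSPB3, HSPB6 and HSPB8) and 3 with the combination, and HSPB11, which is now named IFT25 for its part in intraflagellar transport, gave 0.01 ± 0.10 and -0.21 ± 0.10. HSPB6 reached the minimum count of the filter in 0 of 6 samples without vemurafenib and 5 of 6 with it, so it was tested only through the groups where it was high, and the count of 4 among 5 tested genes rests partly on the filter. HSPB3, known from muscle, read 0.709, 0.338 and 0.950 CPM with DMSO, 0.513, 0.523 and 0.603 with tretinoin, 2.29, 3.08 and 3.42 with vemurafenib, and 1.93, 2.28 and 1.81 with the combination. Every sample with vemurafenib lay above 1.8 CPM and every other sample below 1 CPM, and the log2 rise was 2.08 ± 0.29 with vemurafenib (edgeR adjusted p = 1.22e-05), or 4.23-fold, and 1.54 ± 0.30 with the combination (0.00037). HSPB8, which with BAG3 and HSP70 sends misfolded proteins to autophagy, read 6.51, 9.59 and 10.5 CPM with DMSO, 9.90, 9.82 and 9.09 with tretinoin, 15.3, 16.6 and 15.8 with vemurafenib, and 15.4, 14.7 and 16.7 with the combination. The groups with and without vemurafenib were separate, with rises of 0.84 ± 0.13 (4.14e-05) and 0.81 ± 0.13 (5.47e-05). HSPB6 was scarce, with 1 to 23 counts per sample, and read 0.451, 0.135 and 0.211 CPM with DMSO, 0.0733, 0.349 and 0.274 with tretinoin, 0.675, 0.385 and 1.08 with vemurafenib, and 1.16, 1.07 and 0.951 with the combination. The vemurafenib samples overlapped DMSO and those of the combination did not. HSPB6 rose by 1.38 ± 0.52 with vemurafenib (edgeR adjusted p = 0.0338) and 1.97 ± 0.48 with the combination (0.00227), and 38.2% of its exon positions overlap another gene. The HSPB6 vemurafenib call was lost without DMSO replicate 2 or 3 or vemurafenib replicate 1 or 3, at 0.97 to 1.40 with adjusted p of 0.0644 to 0.170.

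HSPB1 encodes HSP27, which protects actin filaments and is by far the most counted of the small heat shock protein genes. It read 185, 197 and 167 CPM with DMSO, 126, 147 and 141 with tretinoin, 223, 214 and 239 with vemurafenib, and 181, 172 and 175 with the combination. The vemurafenib samples were the highest and the tretinoin samples the lowest, and the combination lay between, overlapping DMSO. HSPB1 rose by 0.30 ± 0.08 with vemurafenib (edgeR adjusted p = 0.00283), fell by 0.41 ± 0.08 with tretinoin (0.00388), and stood at -0.06 ± 0.08 with the combination (0.534).

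**Figure D5:**
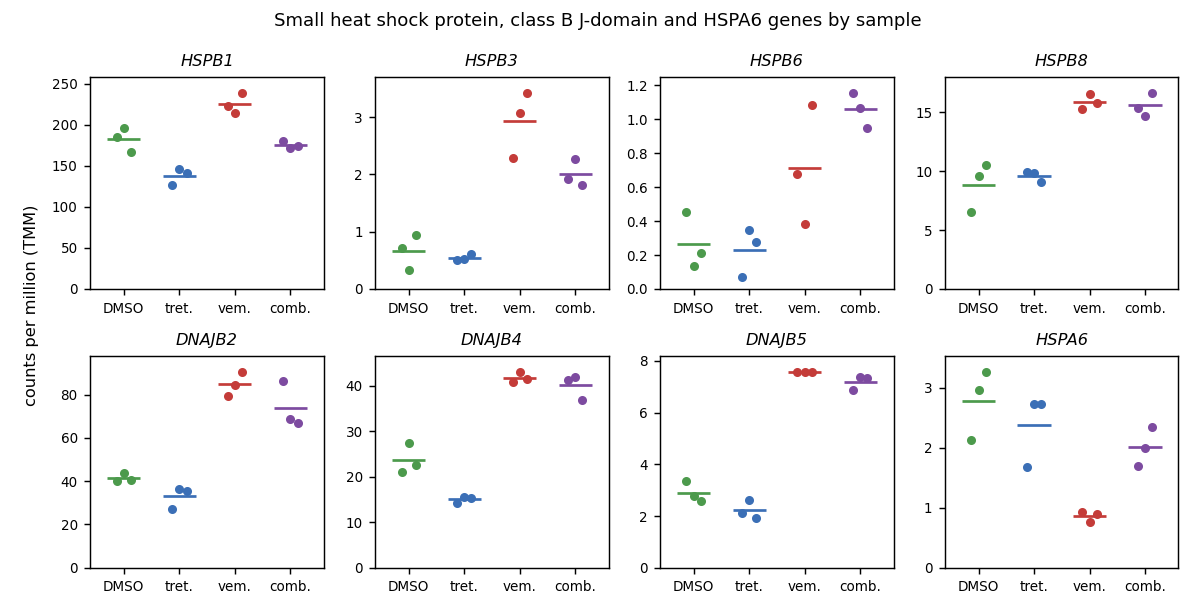
CPM of 4 small heat shock protein genes, 3 class B J-domain genes and HSPA6 in each of the 12 samples (points) with the group mean (line), on axes that start at 0. HSPB3, HSPB8, DNAJB2, DNAJB4 and DNAJB5 are higher in all samples that received vemurafenib, HSPB1 is highest with vemurafenib alone, and HSPA6 is lowest there.

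The 9 ER genes gave 4 falls and 1 rise with vemurafenib, and 1 of each with the combination. Of all tested genes, 26.3% fell and 26.4% rose with vemurafenib, and 26.5% and 27.1% with the combination. The ER genes were not tested as a set. HSPA5 (BiP), the ER HSP70 and sensor of the unfolded protein response, read 1036, 1172 and 1096 CPM with DMSO, 1055, 1252 and 1240 with tretinoin, 786, 867 and 841 with vemurafenib, and 965, 999 and 976 with the combination. The vemurafenib samples were below all others, the combination samples were between them and DMSO, and tretinoin overlapped DMSO. HSPA5 fell by 0.41 ± 0.08 with vemurafenib (edgeR adjusted p = 0.000328) and gave -0.17 ± 0.08 with the combination (0.08) and 0.10 ± 0.08 with tretinoin (0.464), the combination differing from vemurafenib by 0.24 ± 0.08 (0.116). DNAJB9 (ERdj4), which holds BiP on the stress sensor IRE1, fell by 0.40 ± 0.11 with vemurafenib and gave -0.17 ± 0.11 with the combination, and its vemurafenib call was lost under total-count scaling (-0.21, adjusted p = 0.1325). DNAJB11 (ERdj3), a secreted BiP partner, fell by 0.49 ± 0.12 and 0.49 ± 0.12. DNAJC3 (p58IPK), which restrains the kinase PERK, gave -0.04 ± 0.08, 0.22 ± 0.08 and -0.05 ± 0.08 with vemurafenib, tretinoin and the combination.

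HSPA5 and HSP90B1 are shown because they were the 2 promoters of the 74 that held the ER stress element, searched on both strands as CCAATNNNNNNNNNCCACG and found in 0.1% of all promoters, and because HSPA5 fell with vemurafenib where HSP90B1 did not pass the test. The 250 bases before the start lie at chr9:125241344-125241593 (minus strand) for HSPA5 and chr12:103930160-103930409 (plus strand) for HSP90B1, with the element in capitals.
HSPA5: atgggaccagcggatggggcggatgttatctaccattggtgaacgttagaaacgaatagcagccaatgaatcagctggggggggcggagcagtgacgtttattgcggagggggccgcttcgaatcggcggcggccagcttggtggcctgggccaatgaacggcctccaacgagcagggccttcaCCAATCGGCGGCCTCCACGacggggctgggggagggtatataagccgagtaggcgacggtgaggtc
HSP90B1: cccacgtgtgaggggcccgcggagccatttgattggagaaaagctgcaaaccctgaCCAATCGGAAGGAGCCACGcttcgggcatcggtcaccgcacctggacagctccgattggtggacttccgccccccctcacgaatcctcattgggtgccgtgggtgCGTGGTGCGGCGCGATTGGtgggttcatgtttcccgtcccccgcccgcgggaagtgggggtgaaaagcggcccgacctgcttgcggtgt

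The HSPA5 element begins 66 bases before the start, and the HSP90B1 elements 194 and 89 bases before it, the nearer on the opposite strand. Among the 10 mitochondrial genes, 5 fell (HSPE1, HSPD1, DNAJC11, DNAJA3 and HSPA9) and 3 rose (DNAJC4, DNAJC28 and DNAJC30) with each of vemurafenib and the combination. Of the 13 textbook HSF1 targets among the chaperone genes, 11 fell and HSPB1 rose with vemurafenib. With the combination 10 of them fell, and with tretinoin 4 fell. HSPA1A and HSPA1B, which share long stretches of sequence, count as 2 genes among the fallers of each treatment. The shares of all tested genes were 26.3% down and 26.4% up with vemurafenib, and 26.5% and 27.1% with the combination. With tretinoin 2.2% of all tested genes fell. Among the 4185 tested genes with the highest mean CPM, 47.4% fell and 13.5% rose with vemurafenib. Neither the mitochondrial genes nor the HSF1 targets were tested as a set.

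Tretinoin alone changed few chaperone genes. HSPA1A, HSPA1B, HSP90AA1, DNAJB4, TCP1 and HSPB1 fell. By edgeR 0 rose (3.48% of all genes did), as by DESeq2, and 30 of the 71 (42.3%) had an unadjusted p under 0.05 in either direction, against 23.4% of all genes. The median over the 71 was -0.17, against 0.01 for all tested genes. TCP1 fell by 0.27 ± 0.07 (edgeR adjusted p = 0.0242) and HSP90AA1 by 0.34 ± 0.09 (0.037). Without tretinoin replicate 1 the falls were 0.61 for DNAJB4, 0.46 for HSPA1A, 0.44 for HSPA1B, 0.345 for HSPB1 and 0.236 for TCP1, all still called, and 0.238 for HSP90AA1, which was not (adjusted p = 0.0507). HSP90AA1 also lost its call without any 1 of the DMSO or vemurafenib samples or combination replicate 2 or 3, with adjusted p up to 0.160, and TCP1 without DMSO replicate 2 or 3 (adjusted p of 0.145 and 0.0502). The number of fallers was 1 when the fit held only the DMSO and tretinoin samples, 13 without the filter, 16 with DESeq2 and 11 without tretinoin replicate 3.

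Adding tretinoin to vemurafenib altered 4 chaperone genes. Relative to vemurafenib alone, HSPA8, HSPA12A and HSPB1 fell and HSPA6 rose, which is 4.23% and 1.41% of the 71, against 2.2% and 2.27% of all tested genes. HSPA8 fell by 0.30 ± 0.07 (edgeR adjusted p = 0.0143), HSPA12A by 0.48 ± 0.12 (0.0184) and HSPB1 by 0.36 ± 0.07 (0.00728), and HSPA6 rose by 1.22 ± 0.27 (0.0118). The samples of both groups did not overlap for 20 of the 71 genes, the 4 among them. The share over all tested genes was not counted for this comparison. HSPA8 lost its call without vemurafenib replicate 1 or 2 or combination replicate 2 or 3 (-0.32 to -0.28, adjusted p of 0.0588 to 0.101), and HSPA12A without any vemurafenib sample or combination replicate 1 or 2 (-0.49 to -0.43, 0.0538 to 0.0900). HSPB1 lost it without vemurafenib replicate 3 or combination replicate 2 (-0.32 and -0.345, 0.0551 and 0.0547), and HSPA6 without vemurafenib replicate 2 or combination replicate 3 (1.14 and 1.09, 0.0807 and 0.0742). Between 0 and 7 genes fell and between 0 and 2 rose as each sample was left out, with 7 and 2 without tretinoin replicate 1.

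The interaction of the drugs, the tretinoin effect with vemurafenib minus that without it, was called for DNAJB4. Tretinoin changed DNAJB4 by -0.65 ± 0.10 on its own and by -0.06 ± 0.09 on top of vemurafenib, a difference of 0.59 ± 0.13 (edgeR adjusted p = 0.0488). For the 71 genes, 1.41% were called up, against 0.382% of all genes. By edgeR 0 were called down, as by DESeq2, against 0.424% of all genes, and 17 (23.9%) had an unadjusted p under 0.05 in either direction, against 15.6% of all genes. The DNAJB4 call held in 2 of the 12 fits that left out 1 sample, those without DMSO replicate 1 or tretinoin replicate 1 (0.66 and 0.55), with values of 0.47 to 0.66 and adjusted p up to 0.144 over the 12, and was lost under total-count scaling (0.48, adjusted p = 0.0852) and with the replicate number as a block (0.58, adjusted p = 0.0651). HSPA6 had the largest interaction, 1.44 ± 0.36 (edgeR adjusted p = 0.0745).

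Relative to tretinoin alone, the combination lowered 31 of the 71 genes (43.7%) and raised 15 (21.1%), against 25.0% and 24.1% of all tested genes, with medians of -0.17 and 0.02. With total-count scaling the split was 24 down and 18 up (57.1% down, in place of 67.4%), which is 33.8% and 25.4% of the 71, against 19.5% and 30.2% of all genes. HSPA8 fell by 1.42 ± 0.07, DNAJA1 by 0.74 ± 0.10 and HSPE1 by 0.72 ± 0.09. HSPB6 rose by 2.09 ± 0.49, HSPB3 by 1.86 ± 0.32, DNAJB5 by 1.70 ± 0.15 and DNAJB4 by 1.41 ± 0.10. HSPB6 and DNAJC28, both among the 15, passed the low-count filter only through samples that received vemurafenib. DNAJC12, a J-domain protein that serves the aromatic amino acid hydroxylases, rose by 0.41 ± 0.16 here (edgeR adjusted p = 0.0368), while vemurafenib gave 0.08 ± 0.15 and tretinoin -0.25 ± 0.16 relative to DMSO. CCT7 gave -0.09 ± 0.09 in this comparison (0.424), and the other 7 CCT subunits fell by 0.31 (CCT3) to 0.60 (CCT2).

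The partners of the chaperones were read from lists of genes outside the family, which were not tested as sets. For comparison, 26.3% of all tested genes fell and 26.4% rose with vemurafenib, and 26.5% and 27.1% with the combination. With tretinoin, 2.2% of all tested genes fell and 3.48% rose. Among the 4185 tested genes with the highest mean CPM, 47.4% fell and 13.5% rose with vemurafenib. Of 16 HSP90 co-chaperones, 12 fell with vemurafenib and 12 with the combination, among them FKBP4, a peptidyl-prolyl isomerase (-0.96 ± 0.08 and -1.15 ± 0.08), and CHORDC1 (-0.96 ± 0.07 and -1.05 ± 0.07). Of 13 HSP70 exchange factors and helpers, 7 fell with vemurafenib and 5 with the combination, and tretinoin raised BAG3 and lowered GRPEL1. GRPEL1, the exchange factor of mitochondrial HSPA9, gave the largest falls of this list (-1.24 ± 0.09 and -1.21 ± 0.09). BAG3, the partner of HSPB8, fell with vemurafenib (-0.83 ± 0.06) while HSPB8 rose, and it rose with tretinoin alone (0.23 ± 0.06, edgeR adjusted p = 0.0377) and when tretinoin was added to vemurafenib (0.40 ± 0.06, adjusted p = 0.000604). Of the 12 prefoldin and CCT helper genes, 4 fell and 1 rose with vemurafenib, and 6 fell and 2 rose with the combination. Of 12 other ER folding factors, 4 fell and 1 rose with vemurafenib, 3 fell and 1 rose with the combination, and HERPUD1 was the riser in both and also rose with tretinoin. In a list of HSF1, HSF2, HSF4 and the factor-binding gene HSBP1, HSF1 fell, by 0.46 ± 0.07 with vemurafenib (edgeR adjusted p = 2.83e-05) and 0.47 ± 0.07 with the combination (2.48e-05).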

How the data were processed

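For every sample the authors deposited unnormalized counts, one whole number of fragments for each gene. Per the submitters' processing notes, reads were aligned with STAR 2.5.3a to GRCh38.p10, and the study counted fragments on a GENCODE annotation in union mode, ignoring strand, so a fragment over exons of overlapping genes was counted for none of them. Gene names and positions came from GENCODE 29. The chaperone genes and all lists were chosen with earlier results of these data known. Counts were filtered (filterByExpr), scaled by TMM and fitted in edgeR 4.0.16 (R 4.3.3) with a term per group over all 12 samples. The quasi-likelihood test was used for the 3 treatments relative to DMSO, for the combination relative to either drug, and for the interaction, with Benjamini-Hochberg adjustment over 16740 genes and a threshold of 0.05. The script was tested on simulated data. CPM are TMM-scaled, and errors of log2 values are standard errors. Named genes were textbook core chaperones, those called with the largest changes relative to DMSO without overlap (6 up, 6 down), the 5 smallest p of combination relative to vemurafenib and of the interaction, and 5 further large differences of combination relative to tretinoin, 42 in all. Further members are named where a count includes them, chosen after their values were seen. Shared exon stretches (at least 150 bases at 98% identity) came from blastn 2.17.0. Alternatives were DESeq2 1.42.0 with and without a beta prior, its size factors, total counts alone, no filter, a fit of just the groups in a comparison, a block for replicate number, and each sample left out. Other steps used Python 3.11.15. Library depth, 13510235 to 21534377 fragments, limits genes below about 1 CPM most. One list of cell type markers is not reported here.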

Additional observations from a re-analysis of the deposited data

Results flagged for a closer look

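One result was picked out because the effect of 1 drug differed between samples with and without the other. For DNAJB4, the log2 change with tretinoin was -0.65 in cells without vemurafenib and -0.06 in cells with it, and the test of that difference gave 0.59 (0.586, edgeR's quasi-likelihood adjusted p = 0.0488). The call was kept in 2 of 12 fits that left out 1 sample (adjusted p of 0.0292 to 0.144 over the 12), and was lost with total counts alone (0.48, adjusted p = 0.0852) and with the replicate number as a block (0.58, adjusted p = 0.0651). The 3 tretinoin samples read 14.2, 15.5 and 15.3 CPM, below 3 of 3 DMSO samples at 20.9, 27.4 and 22.5 CPM, while the combination samples at 41.3, 41.9 and 36.9 CPM overlapped the vemurafenib samples at 40.7, 43.1 and 41.5 CPM. With 3 samples in each group, outlying values of single genes were not tested for.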

How the results depend on the processing

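Counts of chaperone genes that rose or fell with vemurafenib (11 to 16 and 33 to 39 as each sample was left out), with the combination relative to DMSO (12 to 15 and 29 to 38) and relative to tretinoin (13 to 15 and 28 to 36) stayed within 1.5 times their values under every alternative run, and no named change turned its direction. Smaller counts did not. The fallers with tretinoin (6) numbered 13 without the filter, 16 with DESeq2 with or without a beta prior, 1 with only the groups compared, and 4 to 11 as each sample was left out, when 0 to 2 rose. For the combination relative to vemurafenib (3 down, 1 up), only the groups compared gave 7 and 3, and leaving out each sample 0 to 7 and 0 to 2. For the interaction (1 up), the count was 0 with total counts alone, 2 without the filter, 2 with DESeq2 with or without a beta prior, and 0 to 2 as each sample was left out. The cause of these differences was not tested.

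With the replicate number as a block, the interaction count was 0 and 3 named calls were lost (DNAJB4 interaction, 0.58, HSP90AA1 with tretinoin, -0.35, DNAJC28 with vemurafenib, 0.92), all close to the threshold. Samples with the same number did not deviate together (mean correlation -0.031 over 18 pairs, from -0.143 to 0.087). Pairs of different number gave 0.015 over 36 pairs. The labels do not say whether the numbers pair the samples, and a lack of shared deviation cannot exclude it. The DNAJC28 calls were also lost without the filter (0.90 with vemurafenib, 0.96 with the combination) and with DESeq2 (0.93 and 0.97, or 0.64 and 0.68 with a beta prior), and DNAJC30 with vemurafenib without the filter (0.285). Genes of few counts, HSPB6, DNAJC28, HSPB3 and HSPA6, carry the largest standard errors among the named genes (0.27 to 0.52 with vemurafenib).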
